A study of Mus musculus with 8 samples.

Results

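The response of CD45High CD4 T cells to antibodies against CD3 and CD28 was read from the 4 arrays labelled CD4+CD45High, out of 8 arrays in the series. They hold 1 array each of unstimulated wild-type, unstimulated Mir-21 KO, stimulated wild-type and stimulated Mir-21 KO cells. The cells were CD4 T cells sorted by flow cytometry from mesenteric lymph nodes of mice without the Mir-21 gene and of wild-type littermates, and the stimulated set met both antibodies for 30 min before total RNA was taken. The other 4 arrays hold CD25High cells in the same combinations. No combination was repeated, so the wild-type pair and the knockout pair (stimulated minus unstimulated) stood in for replicates, which sets how precisely any difference is known. P-values therefore set the mean response of the pairs against the gap between genotypes, pooled across probes, not against the spread of other mice. A small p-value does not show that both genotypes responded alike. Gadd45b, for example, rose by 0.92 in wild type and by 3.16 in knockout (log2) and passed. No value below can be tied to strain, age, the number of animals behind an array or the CD45 isoform used for the sort, nor to whether the unstimulated cells were kept for the same time without antibody, since the labels and files do not state them. The effect of the antibodies and that of the handling time cannot be told apart. In RNA from a sorted population, a change in the cells present and a change in RNA per cell cannot be told apart either.

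The T cell receptor signals through CD3, and CD28 delivers the costimulatory signal. Together they open calcium, MAP kinase, protein kinase C and phosphatidylinositol kinase pathways that activate the transcription factors NFAT, AP-1 and NF-kappaB. Primary response genes are transcribed within minutes without new protein synthesis, and many of them encode transcription factors or inhibitors of the same signals. MicroRNA-21, which the knockout lacks, is itself abundant in activated T cells and represses messenger RNAs that pair with its seed. The mature sequence is shown because both genotypes enter every value given here (RefSeq, GRCm38.p6, chr11:86584120-86584141, minus strand), with the seed, bases 2 to 8, in capitals.
mmu-miR-21a-5p: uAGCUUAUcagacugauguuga

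Per array, 9543 to 10001 probes of the CD45High cells were detected (detection p under 0.01), and the 4 arrays correlated with each other across probes at 0.958 or above. All 7 measured T cell markers were detected on all 4 arrays. Foxp3, which defines regulatory T cells, was at 5.61 and 5.47 before and 6.25 and 5.70 after stimulation (log2, wild type then knockout, an order kept below), against a mean of 11.41 in the CD25High arrays. The summed signal of the 7 regulatory T cell markers was 1374 and 1306 before and 2470 and 2460 after stimulation, and the part of such cells in the results below was not tested. Of the 7, 3 were called higher and 2 lower, each read by its brightest probe. Those higher were Il2ra, Ctla4 and Tnfrsf18, which are also activation genes and are described below. Gpr83 (-1.42) and Nrp1 (-0.55) were called lower, and Foxp3 (0.43) and Ikzf2 (0.09) were not called. B cell markers summed to 1257 and 1749 before and 1641 and 1544 after stimulation, with Ms4a1 not detected. Among 9 myeloid and dendritic markers Itgam, Csf1r, Cd14, S100a9, Itgax and Tyrobp were not detected, and the sum was 299.6 and 419.8 before and 320.5 and 183 after. CD8 T and NK cell markers summed to 1355 and 1314 before and 1013 and 983 after, with Cd8a, Klrb1c and Ncr1 not detected and Cd8b1 (-0.68) and Nkg7 (-1.17) called lower of 3 measured. Effector and memory markers summed to 745 and 693 before and 528 and 527 after, with Cxcr3 and Gata3 called lower of 5 measured. The part of such cells in the results was not tested. No probe carries the symbol Mir21, so the arrays give no check of the deletion. Vmp1, the gene whose 3′ end overlaps Mir21, had a probe, ILMN_2861787, that was detected in both knockout arrays (5.53 and 6.27) and in neither wild-type array (4.40 and 4.45), while its other tested probes were detected on all 4 arrays.

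Stimulation moved many transcripts in both directions by small amounts and a few by large ones. Of 9998 probes tested, 1156 (11.6%) were called higher and 1266 (12.7%) lower after stimulation (limma with genotype as a block, Benjamini-Hochberg adjusted p under 0.05). All 2422 called probes had the same sign in both pairs, which the test favours because a gap between the pairs counts as error. The smallest called change was 0.46 and the median size 0.67 on the log2 scale, while 225 called rises and 221 called falls exceeded 2-fold. Counted by size, 151 probes (1.51%) were 2-fold or more higher in both pairs and 144 (1.44%) were 2-fold or more lower, and 2 were 2-fold apart in opposite directions. Of the 1156 probes called higher, 115 were detected on neither unstimulated array and on both stimulated ones. Of the 1266 called lower, 82 went the other way.

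The responses of wild-type and knockout cells correlated at 0.737 across probes, a description across genes of arrays that share no RNA. Their SDs were 0.47 in wild type and 0.55 in knockout, and the SD of their difference was 0.38. That difference is the only source of the error, which was pooled across probes (1 residual and 12.4 prior degrees of freedom). The counts of calls therefore rest on how the error is estimated. Without genotype in the model 880 probes were called higher and 1001 lower. With 1 array left out, 3 arrays leave no residual degree of freedom beside genotype, so those fits held stimulation alone. Without the unstimulated wild-type array, 281 probes were called higher and 311 lower, and without the unstimulated knockout array 259 and 271. Without the stimulated knockout array the counts were 756 and 809. With an error shared with CD25High cells, 77 and 27 were called, all of them among the 2422.

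**Figure D1:**
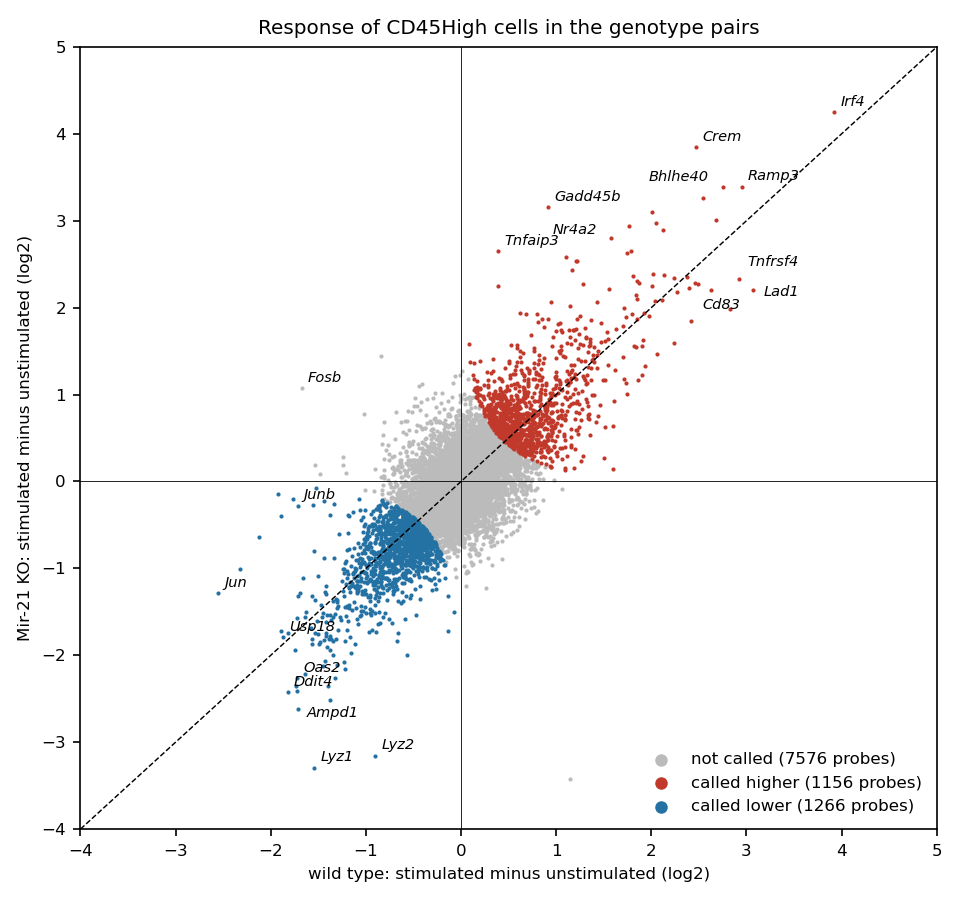
Each point is 1 of 9998 probes, with the log2 difference stimulated minus unstimulated in wild-type cells on the horizontal axis and in Mir-21 KO cells on the vertical axis, coloured by call. The dashed line marks equal responses. Called probes lie in the quadrants where both pairs have the same sign, Irf4 is highest in both genotypes, and Fosb lies below 0 in wild type and above 0 in knockout.

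The largest rise was that of Irf4, a transcription factor that activated T cells need for expansion and effector differentiation (chr13:30749233-30766981, GRCm38.p6). Its level was 7.68 and 6.89 before and 11.60 and 11.14 after stimulation. Both stimulated arrays lay far above both unstimulated ones, a difference of 4.09 ± 0.23 (log2, SD, 2 pairs), or 17-fold (adjusted p = 1.23e-08). Crem, a cyclic AMP responsive factor of which some forms repress, went from 5.51 and 4.88 to 7.98 and 8.73, and the knockout pair moved more (3.85) than the wild-type pair (2.47). Ramp3, which partners G protein coupled receptors of the calcitonin family, went from 5.92 and 5.84 to 8.87 and 9.24 (3.17 ± 0.31, adjusted p = 2.5e-07). All 3 Ramp3 probes were called higher, the weakest by 0.50. Bhlhe40, a helix-loop-helix repressor that shapes cytokine production, went from 5.65 and 4.91 to 8.41 and 8.30 (3.07 ± 0.45). In none of these genes did a stimulated array overlap an unstimulated one.

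Next in size were Zfp52, a zinc finger protein (2.90), and Lad1, an anchoring filament protein that was not detected before stimulation (4.53 and 4.23) and was at 7.60 and 6.44 after it, at least 4.44-fold higher (adjusted p = 2.38e-06). A fold written as "at least" sets each undetected value to no less than the dimmest detected signal of its array. Tnfrsf4, the costimulatory receptor OX40, rose by 2.63, and Tgif1, a homeobox corepressor of TGF-beta signals, by 2.51. Cd83, a surface protein of activated lymphocytes and dendritic cells, went from 6.13 and 6.14 to 8.75 and 8.34. Il4i1, a secreted amino acid oxidase, rose by 2.38, Kdm2b, a histone demethylase, by 2.37, and Gch1, the rate-limiting enzyme of tetrahydrobiopterin synthesis, by 2.36. The probe of LOC100047934 (2.41), the Pisd pseudogene Pisd-ps2 (2.31) and Relb (2.29) complete the 15 largest rises. For Kdm2b, Il4i1, Pisd-ps2 and Relb the SD between the pairs was between 0.07 and 0.15.

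**Figure D2:**
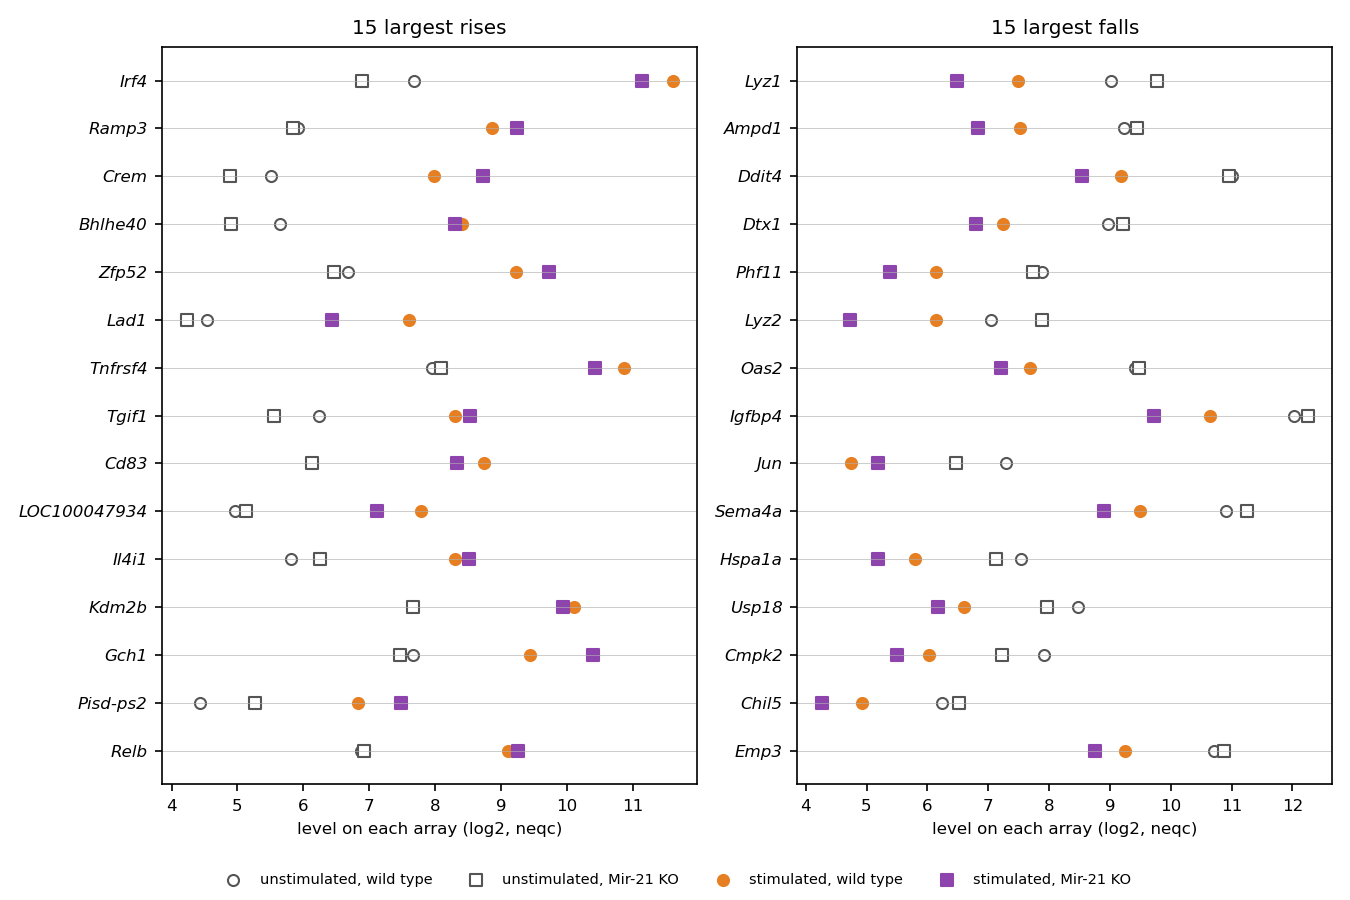
Log2 levels on each of the 4 CD45High arrays for the genes with the 15 largest called rises (left) and 15 largest called falls (right), with open symbols for unstimulated and filled symbols for stimulated cells, circles for wild type and squares for Mir-21 KO. In every row the filled symbols lie on the same side of the open ones; levels of different genes come from different probes and are not comparable.

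Of 23 gene lists, that of NF-kappaB had the highest share of members called higher. Its dimers are made of Rel, Rela, Relb, Nfkb1 and Nfkb2, inhibitors of the IkappaB family hold them, and several inhibitors are themselves targets that end the signal. Of 17 listed genes, all measured, 14 were called higher and 0 lower, against 11.9% higher and 13.2% lower among 7387 genes, each read by its brightest probe. The median of the list was 0.91 and that of all genes 0.0005. Adjusted p for each of these 14 genes came from the fit over all probes. The lists were chosen with earlier results of these data known, so list shares here and below describe these data and are not tests.

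Among the subunits, Relb went from 6.87 and 6.92 to 9.11 and 9.26, with 2.23 in wild type and 2.34 in knockout. Rel, the subunit tied most closely to T cell activation, went from 4.96 and 4.93 to 6.75 and 7.59 (2.22 ± 0.62, adjusted p = 7.26e-06). Nfkb2, the precursor of the partner of Relb, went from 4.83 and 4.89 to 6.63 and 6.82, and was detected on 1 of the 2 unstimulated arrays. All stimulated values of these 3 genes lay above all unstimulated ones. Nfkb1 rose from 9.98 and 10.04 to 11.69 and 11.47, and Rela, the transactivating subunit, had the smallest rise of the 5 (0.51, adjusted p = 0.0326).

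Among the inhibitors, Nfkbid, an atypical nuclear IkappaB, rose from 10.03 and 9.77 to 11.25 and 11.64, and Nfkbib by 1.47. Tnfaip3, the ubiquitin-editing enzyme A20 that shuts the pathway off, was at 9.33 and 7.81 before and 9.72 and 10.46 after stimulation. Its wild-type pair rose by 0.39 and its knockout pair by 2.65, and the gap came mostly from the resting cells, where wild type was higher. Nfkbia, the classical inhibitor, followed the same pattern with 10.59 and 9.64 before and 10.92 and 11.06 after (wild-type pair 0.33, knockout pair 1.41). Nfkbie (0.91), Traf1 (0.91), Tnip2 (0.86), and Tnip1 (0.67, in 1 of 4 probes) were also called higher, as was Birc3, which was not detected before stimulation (at least 1.05-fold). Not called were Nfkbiz (0.27), the deubiquitinase gene Cyld (-0.00) and Bcl3 (-0.16).

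Promoter windows are shown because so many members of this group rose together. Each is 300 bases, from 250 before to 50 after a listed start of transcription, 5′ to 3′ on the gene's strand (RefSeq, GRCm38.p6). Where several starts are listed (3 for Nfkb2, 2 for Tnfaip3), only the first listed was read. Capitals mark matches to the kappaB motif. The first is that of Irf4, with no match, and of the 6 largest rises that could be read here, only Ramp3 held one. Rel, Nfkb2, Tnfaip3 and Nfkbia were picked after their values were seen.
Irf4 chr13:30748983-30749282, plus strand: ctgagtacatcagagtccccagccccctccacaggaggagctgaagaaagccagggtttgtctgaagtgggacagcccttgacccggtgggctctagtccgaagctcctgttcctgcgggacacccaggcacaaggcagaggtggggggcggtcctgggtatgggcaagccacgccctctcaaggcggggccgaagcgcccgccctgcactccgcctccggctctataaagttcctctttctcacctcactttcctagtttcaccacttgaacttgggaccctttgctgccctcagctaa
Ramp3 chr11:6658283-6658582, plus strand: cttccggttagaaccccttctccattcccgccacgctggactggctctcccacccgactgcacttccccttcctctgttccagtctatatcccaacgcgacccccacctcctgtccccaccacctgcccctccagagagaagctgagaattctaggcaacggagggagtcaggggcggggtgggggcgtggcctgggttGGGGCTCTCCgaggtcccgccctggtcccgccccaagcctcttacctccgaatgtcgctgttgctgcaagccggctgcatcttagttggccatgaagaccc
Rel chr11:23770920-23771219, minus strand: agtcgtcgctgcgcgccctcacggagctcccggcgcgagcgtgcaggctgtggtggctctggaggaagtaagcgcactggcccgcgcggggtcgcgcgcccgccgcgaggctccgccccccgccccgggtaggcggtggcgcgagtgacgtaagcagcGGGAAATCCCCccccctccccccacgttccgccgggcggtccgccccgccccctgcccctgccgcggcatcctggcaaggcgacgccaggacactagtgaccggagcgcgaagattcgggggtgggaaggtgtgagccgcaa
Nfkb2 chr19:46304487-46304786, plus strand: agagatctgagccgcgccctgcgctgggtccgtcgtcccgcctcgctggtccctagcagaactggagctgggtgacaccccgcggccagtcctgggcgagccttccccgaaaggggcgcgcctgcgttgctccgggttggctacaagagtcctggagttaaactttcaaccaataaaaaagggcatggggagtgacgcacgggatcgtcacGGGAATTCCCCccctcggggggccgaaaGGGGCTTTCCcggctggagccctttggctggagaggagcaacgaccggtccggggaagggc
Tnfaip3 chr10:19015361-19015660, minus strand: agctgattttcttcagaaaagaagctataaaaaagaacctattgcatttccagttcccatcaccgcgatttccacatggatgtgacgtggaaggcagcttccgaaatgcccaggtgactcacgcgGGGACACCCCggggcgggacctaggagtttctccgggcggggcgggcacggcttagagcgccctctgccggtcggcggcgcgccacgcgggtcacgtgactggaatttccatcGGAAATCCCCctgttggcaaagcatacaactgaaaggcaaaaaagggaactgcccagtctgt
Nfkbia chr12:55492598-55492897, minus strand: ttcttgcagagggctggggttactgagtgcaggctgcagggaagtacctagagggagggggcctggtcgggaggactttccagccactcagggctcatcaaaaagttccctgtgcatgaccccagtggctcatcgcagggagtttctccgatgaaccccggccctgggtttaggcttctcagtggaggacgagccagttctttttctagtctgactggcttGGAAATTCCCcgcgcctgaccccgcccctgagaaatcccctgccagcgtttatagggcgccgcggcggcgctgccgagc

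In Ramp3 the match lies at -51 to -42 from the start site. In Nfkb2 matches lie at -39 to -29 (overlapping matches on both strands) and -11 to -2, in Rel at -92 to -82, in Nfkbia at -29 to -20, and in Tnfaip3 at -125 to -116 and -12 to -3. The Tnfaip3 window also holds TGANTCA, the AP-1 motif, at -136 to -130, left in lower case. Of the 17 NF-kappaB genes 14 have an entry in the promoter table, and 8 hold the kappaB motif: the 4 printed, Nfkbie and Tnip1, which rose, and Cyld and Bcl3, which were not called. Over all 27025 promoters of the table the share with the motif on either strand was 4.35%, over the 5763 tested genes with an entry 5.08%, over 683 called higher 7.91% and over 748 called lower 5.35%. The other motifs searched on both strands had these shares among tested, called higher and called lower genes: TGACGTCA, the cyclic AMP response element, 3.52%, 4.69% and 2.41%; TGANTCA 4.67%, 4.83% and 5.35%; GCGNGGGCG, the EGR motif, 10.05%, 10.25% and 9.09%; and the CArG box, bound by Srf, 1.27%, 1.02% and 2.01%. A match describes letters in a window and is not a measured binding site.

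The early transcription factors split. Of 24 listed EGR, NR4A and related genes 19 were measured (median 0.30). Of these, 9 were called higher (47.4%) and 3 lower (15.8%), against 11.9% and 13.2% of all genes. Besides Irf4, Crem and Bhlhe40, the nuclear receptors Nr4a2 and Nr4a3, both induced by receptor signals without a known ligand, were among the rises. Nr4a2 went from 5.11 and 4.80 to 6.69 and 7.60 (2.19 ± 0.86, adjusted p = 2.78e-05), and Nr4a3, not detected before stimulation, to 6.48 and 7.28, at least 4.02-fold higher. Ets2 (1.47), Ier3 (1.32), Egr2 (0.97) and Myc (0.81) also rose. Egr2, a factor of T cell tolerance, was nearly the same in both genotypes, with 8.09 and 8.11 before and 8.97 and 9.16 after. By contrast Egr1, the prototype of the family, was already bright in resting cells (11.75 and 11.43) and stood at 11.36 and 11.70 after stimulation, with the pairs opposite in sign and no call (adjusted p = 0.847). Called lower were Ier2, with no detection left after stimulation (at least 1.78-fold), Srf (-0.86), which drives growth factor responses at CArG boxes, and Id3 (-0.54). Egr3, Nr4a1 and Btg2 were detected on no CD45High array and had no test.

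AP-1 subunits moved mostly down, by more in the wild-type pair (list median -1.26) than in the knockout pair (-0.16). AP-1 is a dimer of Fos and Jun family proteins, and its genes are classical primary response genes. Of 8 measured members (13 listed) 4 were called lower, Jun, Jund, Junb and Fos (50%, against 13.2% of all genes). The 2 called higher (25%, against 11.9%) were Mafg (1.26) and Maff (at least 1.18-fold), both small Maf proteins that lack an activation domain. The list median was -0.57. Jun went from 7.30 and 6.48 to 4.74 and 5.19, a fall in both genotypes (-1.92 ± 0.90, adjusted p = 8.23e-05), and was detected on only 1 stimulated array. Jund went from 7.26 and 7.37 to 6.18 and 6.14, and the genotypes were close. Junb was at 11.50 and 10.56 before and 9.78 and 10.28 after stimulation, so that nearly all of its fall was in wild type (-1.72 against -0.28 in knockout).

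Fos showed the same pattern as Junb, with 10.18 and 10.02 before and 8.74 and 9.79 after stimulation. Only the stimulated wild-type array was clearly lower, and the mean fell by 0.83 ± 0.86 (adjusted p = 0.0188). Fosb was not called: it was at 7.76 and 6.27 before and 6.08 and 7.35 after, a difference of -1.67 in wild type and 1.08 in knockout. Fosb and Egr1 changed sign when a wild-type array was left out. Batf, which pairs with Irf4 on shared DNA elements, was at 0.07 with no call.

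The phosphatases that switch off MAP kinases divided as well. Of 8 measured phosphatase and Sprouty genes, 4 were called higher (50%) and 2 lower (25%), against 11.9% and 13.2% of all genes. The list median was 0.32, or 0.25 with undetected values at their bound. Dusp16, which acts on JNK and p38 kinases, went from 5.15 and 5.26 to 7.16 and 7.51 (2.13 ± 0.18, adjusted p = 2.39e-06). Dusp4 was at least 1.57-fold higher, and of the inhibitors of Ras signals Spred1 rose by 0.88 and Spred2 at least 1.29-fold. Dusp1, a primary response phosphatase, fell from 11.79 and 10.78 to 10.23 and 10.51, with -1.56 in wild type and -0.27 in knockout. Dusp6, which acts on ERK kinases, had -0.63 and was called lower, though its other probes (-0.27 and -0.45) were not. Dusp2 had -0.31 without a call. For Jun, Junb, Fos and Dusp1 wild type was above knockout before stimulation and below it afterwards, and both stimulated values lay below both unstimulated ones.

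**Figure D3:**
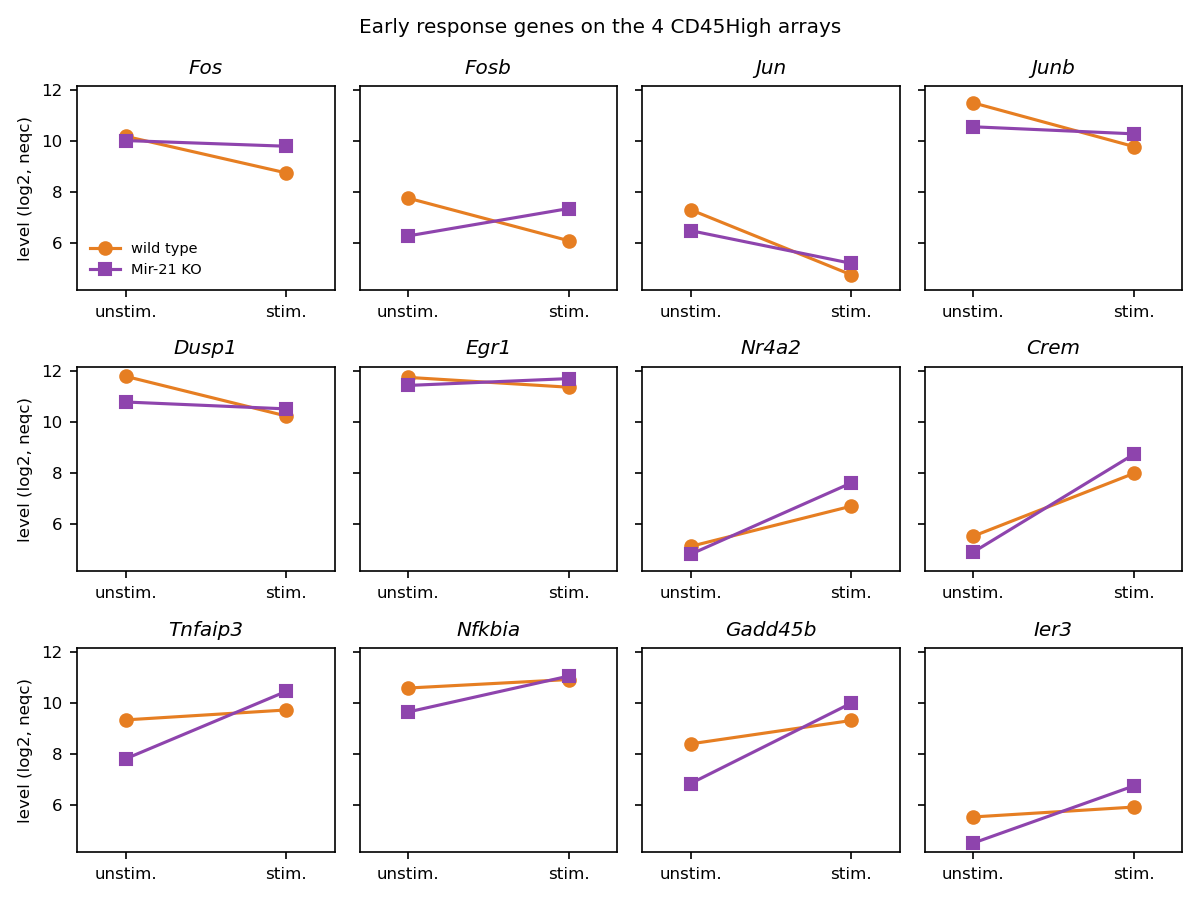
Log2 levels of 12 early response genes on the 4 CD45High arrays, with 1 panel per gene, unstimulated on the left and stimulated on the right of each panel, circles for wild type and squares for Mir-21 KO. In all 12 panels, which were picked after their values were seen, the wild-type point lies above the knockout point before stimulation and below it afterwards.

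Surface receptors and ligands of activation rose as a group. Of 19 measured genes 15 were called higher (78.9%) and 1 lower (5.3%), against 11.9% and 13.2% of all genes (list median 0.74). Besides Tnfrsf4 and Cd83, Ctla4, the inhibitory counterpart of CD28, went from 7.58 and 7.0 to 8.78 and 9.54, and Icos, a costimulatory relative of CD28, from 8.90 and 8.63 to 10.32 and 10.69. Il2ra, the CD25 chain, was not detected before stimulation and was at 6.35 and 5.85 after it, at least 2.35-fold higher (adjusted p = 1.39e-05). The TNF receptor family members Tnfrsf18 (1.69) and Tnfrsf9 (1.25) rose, as did the ligands Tnfsf11 (0.95) and Tnfsf8 (0.59). Tfrc, the transferrin receptor, rose by 0.93, the inhibitory receptor Btla by 0.74, Slamf1 by 0.59, Cd200 by 0.56 and Cd274, the ligand PD-L1, by 0.56. Cd69, an early activation marker that holds cells in the lymph node, was already at 12.17 and 11.45 and reached 12.41 and 12.24 (adjusted p = 0.0469). Lag3, a receptor for MHC class II molecules, was the member called lower (-0.52). Cd44 (0.14), Cd160 (-0.50) and Tnfsf14 (0.32) were not called, and Cd40lg was detected on 1 array and not tested.

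Of 14 measured cytokines and chemokines, 6 were called higher (42.9%) and 3 lower (21.4%), against 11.9% and 13.2% of all genes. The list median was 0.39, or 0.22 with undetected values at their bound. Tnf, an inflammatory cytokine made early by T cells, went from 7.88 and 7.11 to 8.90 and 8.92 (1.42 ± 0.56, adjusted p = 0.00018). Ccl4, a chemokine that attracts T cells and monocytes, went from 5.05 and 4.45 to 6.78 and 6.34, and Ccl3, its relative, was at least 1.22-fold higher. Il3, a growth factor of myeloid progenitors, was detected only after stimulation and was at least 1.6-fold higher, and so were Lif (at least 1.22-fold) and Xcl1 (at least 1.12-fold). Il21 (-0.73), Il4 (-0.52) and Ltb (-0.46) were called lower, although the Il4 values of stimulated and unstimulated cells overlapped. Ifng was detected on 1 array and not tested, and no probe carries the symbol Il2.

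Negative regulators of receptor and cytokine signals moved both ways (median -0.13). Called higher were 5 of 16 (31.25%) and lower 4 (25%), against 11.9% and 13.2% of all genes. Cblb, a ubiquitin ligase that limits activation without costimulation, went from 6.87 and 6.37 to 8.42 and 8.59. Cish, a target of STAT5 that dampens interleukin signals, rose from 8.11 and 8.57 to 9.86 and 9.57, and its relative Socs3 fell from 9.93 and 10.38 to 8.55 and 8.57 (-1.60 ± 0.30, adjusted p = 2.94e-05). Neither gene had overlapping groups. Sh2d2a (1.26) and Sla (1.23, in 2 of 3 probes), adaptors of T cell signalling, and Ptpn22 (1.02), a phosphatase of the receptor pathway, also rose. Dgka and Csk fell by 0.52 and 0.48, and Pag1 was lower by at least 1.15-fold.

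Of 22 measured genes of the T cell receptor complex and its adaptors 3 were called higher (13.6%) and 4 lower (18.2%), with a median of 0.07, against 11.9% and 13.2% of all genes. Themis, needed for thymocyte selection, had the largest change, from 7.08 and 7.26 to 6.21 and 5.62. Prkcq and Vav1, which couple the receptor to NF-kappaB and the cytoskeleton, fell by 0.59 and 0.56. Bcl10, an adaptor of the NF-kappaB pathway, rose by 0.56, Cd28 by 0.61 and Trat1 by 0.49. Cd3e had 0.05, Cd3d -0.13, Cd3g -0.16 and Cd247 -0.10, none of them called. Of 11 NFAT and calcineurin genes 9.1% were called higher and 18.2% lower. Orai1, the pore of the calcium release activated channel, rose by 1.03, and Ppp3cc and Nfatc3 fell by 0.73 and 0.51. Of 14 regulators of G protein and cyclic AMP signals 2 were called higher (14.3%) and 3 lower (21.4%), against the same 11.9% and 13.2% of all genes. Pde4b, a cyclic AMP phosphodiesterase, was at least 1.35-fold higher, and Rgs14 (-0.99) and Grk6 (-0.95) were among the lower ones. Rgs1, a brake on G protein signals, had 3 probes with means from -0.88 to -0.55, which differed in the call. Its brightest probe had -1.21 in wild type and 0.10 in knockout and was not called, and the other 2 were called lower by limma, with -0.88 (adjusted p = 0.00824) and -0.64 (adjusted p = 0.0326).

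Genes of survival, death and stress held some of the largest changes in both directions. Of 21 measured, 9 were called higher (42.9%) and 4 lower (19.0%), against 11.9% and 13.2% of all genes (list median 0.20). Bcl2l1, which encodes the survival protein Bcl-xL, was not detected before stimulation and was at 7.09 and 6.60 after it, at least 3.93-fold higher (adjusted p = 4.49e-06). Bcl2l11, which encodes the death activator Bim, rose by 1.86, Bax by 1.19 and Bbc3, which encodes Puma, by 1.06. The 3 Bbc3 probes disagreed, and the other 2 had 0.26 and -0.24 and were not called. Survival and death genes of the Bcl2 family thus rose side by side, while Bcl2 itself fell by 0.63. Cdkn1a, the cell cycle inhibitor p21, went from 4.27 and 4.39 to 6.25 and 6.30, at least 2.65-fold. Gadd45b, an activator of stress kinases, was at 8.39 and 6.84 before and 9.31 and 9.99 after (adjusted p = 0.000936), and the stimulated arrays were both above the unstimulated ones. The kinase gene Pim1 went from 5.40 and 4.93 to 6.62 and 7.48, and Pim3 rose by 0.59. Bcl2a1d rose by 1.75, but its family members are near-identical copies, so which copy rose is uncertain.

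Ddit4, an inhibitor of the growth kinase mTOR, was among the largest falls, from 11.01 and 10.96 to 9.19 and 8.54 (-2.12 ± 0.42, adjusted p = 5.04e-06). Sgk1, a kinase induced by serum and glucocorticoids, fell by 1.78 and Gadd45a by 0.80 with its brighter probe, while its other probe was not called. The list of Myc targets and ribosome assembly genes, which includes Myc itself, moved the other way. Of its 13 measured genes 8 were called higher (61.5%) and 0 lower (0%), against 11.9% and 13.2% of all genes. The list median was 0.60, and all 13 were above 0. The part of Myc in these rises was not tested. Odc1, the rate-limiting enzyme of polyamine synthesis, went from 9.59 and 9.24 to 11.72 and 11.62 (2.25 ± 0.18, adjusted p = 1.57e-06). Myc went from 5.20 and 5.11 to 6.13 and 5.80, Cad, which starts pyrimidine synthesis, from 6.59 and 6.62 to 7.79 and 7.33, and Srm, a spermidine synthase, from 7.99 and 8.21 to 9.14 and 8.61. In 11 of the 13 the wild-type response was the larger (knockout minus wild type, median -0.33). Over all genes the knockout response was the larger in 3646 of 7387. Nop56, Gnl3, Mybbp1a and Pes1, factors of the nucleolus, rose by 0.76, 0.62, 0.60 and 0.51.

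Among 14 glucose and amino acid uptake genes 2 were called higher (14.3%) and 3 lower (21.4%), against 11.9% and 13.2% of all genes. Hif1a, the hypoxia factor that drives glycolysis, rose by 0.84 and Slc7a6 by 0.54, and Slc38a2, Slc2a3 and Eno1 fell by 0.79, 0.61 and 0.59. Slc38a2 had 3 probes that did not agree, with values from -0.79 to 0.23. Among 16 cell cycle genes Pcna (0.50) and Mcm6 (0.48) of DNA replication were called higher and Top2a (-0.51) and Ccnd3 (-0.49) lower, or 12.5% each way. Of 15 heat shock and chaperone genes 13.3% were called higher and 6.7% lower. The mitochondrial chaperones Hspd1 (0.81) and Hspa9 (0.64) rose, and the stress-inducible Hspa1a fell from 7.54 and 7.13 to 5.80 and 5.19. The probe of Hspa1a may also bind transcripts of its near-identical copy Hspa1b, so the gene is uncertain. Of 12 genes of messenger RNA decay 16.7% were called higher and 0% lower. Zc3h12d, an RNase of the Regnase family, rose from 8.81 and 8.65 to 10.43 and 10.41 and Zfp36l1 by 0.62. Zfp36, which destabilises cytokine messages, had -0.81 in wild type and 0.06 in knockout and no call.

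**Figure D4:**
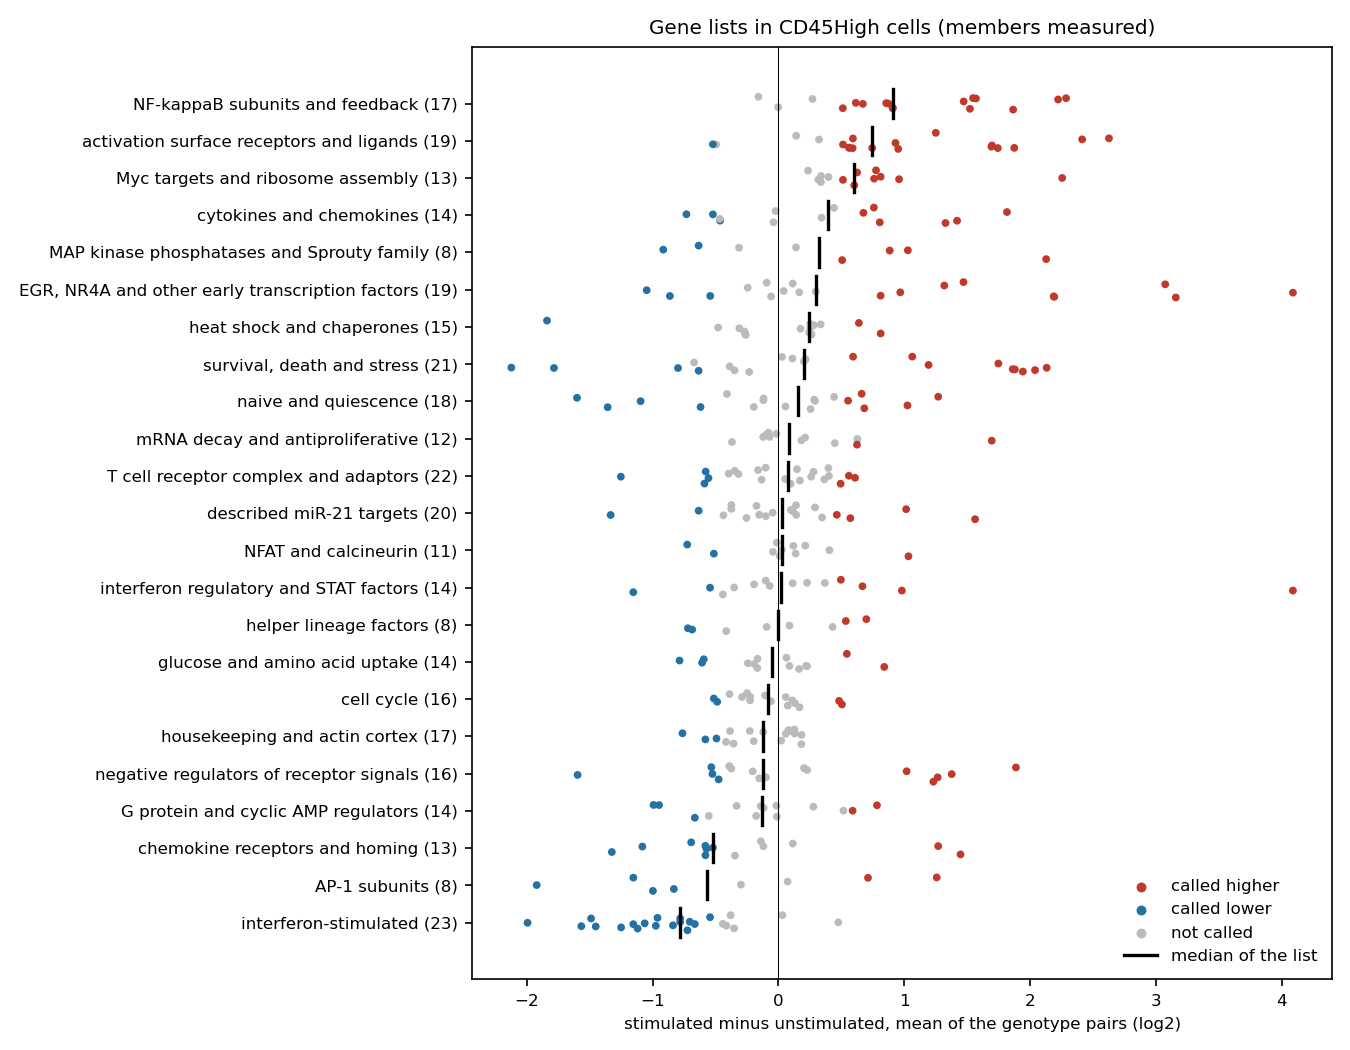
Each point is a measured member of a gene list, placed by its log2 difference stimulated minus unstimulated (mean of both genotype pairs) and coloured by call, with the number of measured members in brackets and a black bar at the median. NF-kappaB, activation surface and Myc genes lie mainly right of 0, interferon-stimulated and homing genes mainly left of it.

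Interferon-stimulated genes had the highest share of members called lower of the 23 lists. These genes are switched on by type I interferon through STAT factors and Irf9 and restrict viruses. Of 23 measured members (30 listed) 17 were called lower (73.9%) and 0 higher (0%), against 13.2% and 11.9% of all genes. The list median was -0.78 (wild-type pair -0.83, knockout pair -0.78). Oas2, an oligoadenylate synthetase that activates RNA decay, went from 9.41 and 9.47 to 7.69 and 7.21 (-1.99 ± 0.38, adjusted p = 6.72e-06). Rsad2, the antiviral enzyme viperin, went from 8.56 and 7.99 to 6.93 and 6.48, Mx2, a dynamin-like GTPase, from 6.93 and 6.45 to 5.24 and 5.16, and Ifit3, which binds viral RNA complexes, from 10.44 and 9.92 to 8.91 and 8.55. In all 4 genes both stimulated arrays lay below both unstimulated ones. Irf7, the amplifier of interferon production, fell from 7.21 and 7.11 to 6.13 and 5.89, and Usp18, which removes the modifier Isg15 and blocks the receptor, fell by 1.83 with its strongest and 1.25 with its brightest probe.

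Among those not called in this group were Stat2 (-0.35), Zbp1 (-0.38), Ifi35 (-0.41), Ifi47 (0.03) and Gbp2 (0.48). Cmpk2, a mitochondrial nucleotide kinase also known as an interferon-induced gene, fell from 7.91 and 7.22 to 6.02 and 5.50 and belongs to the 15 largest falls without being on the list. Among 14 interferon regulatory and STAT factors, Irf4, Stat5a (0.98), Irf5 (0.67) and Stat4 (0.50) were called higher and Irf7 and Irf9 (-0.54) lower. These were 28.6% and 14.3% of the list, against 11.9% and 13.2% of all genes. The family of Irf4 therefore had no common direction.

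The remaining large falls were of mixed function. Lyz1 and Lyz2, lysozymes of myeloid and Paneth cells, fell from 9.03 and 9.78 to 7.48 and 6.49 and from 7.04 and 7.89 to 6.14 and 4.74. Both fell further in knockout (-3.29 and -3.15) than in wild type (-1.54 and -0.90), and their probes may detect either gene. Lyz2 is 1 of the 9 myeloid markers, whose summed signal moved as given above, and their part in the result was not tested. Ampd1, an AMP deaminase, fell from 9.23 and 9.44 to 7.52 and 6.83 and Dtx1, a Notch regulator linked to T cell anergy, from 8.97 and 9.22 to 7.25 and 6.81. Igfbp4, a binding protein of insulin-like growth factors and marker of naive T cells, fell from 12.03 and 12.25 to 10.65 and 9.73. Sema4a, a semaphorin, fell from 10.90 and 11.25 to 9.50 and 8.90, and Emp3, a membrane protein, from 10.70 and 10.88 to 9.25 and 8.76. Phf11, whose family holds close copies, fell by 2.04 and Chil5, a chitinase-like protein, by 1.79.

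Homing receptors moved mostly down. Of 13 measured chemokine receptors and homing molecules 7 were called lower (53.8%) and 2 higher (15.4%), against 13.2% and 11.9% of all genes. The list median was -0.52. Itgb7, the integrin chain that takes T cells to the gut, fell from 11.10 and 11.25 to 9.90 and 9.81 (-1.32 ± 0.17, adjusted p = 8.03e-05). Cxcr3, the receptor for interferon-induced chemokines, fell by 1.08, Cxcr4 by 0.69, Itgae (CD103) by 0.58, Selplg by 0.58, Ccr6 by 0.57 and Cxcr5 by 0.52. Itgae, Ccr6 and Cxcr5 also had probes that were not called (Itgae -0.36, Ccr6 -0.06, Cxcr5 -0.07 and -0.41). Against these falls, Ccr7, which brings naive cells to lymph nodes, went from 8.0 and 8.11 to 9.19 and 9.45. Ccr8 was at least 2.32-fold higher.

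Genes of naive and quiescent cells had no common direction, with 5 of 18 called higher (27.8%) and 4 lower (22.2%), median 0.15. Among all genes the shares were 11.9% and 13.2%. Igfbp4, Txnip (-1.36), a brake on glucose uptake, Il6ra (-1.10) and Foxo1 (-0.62) fell. Ccr7, Bach2 (1.02), a repressor that keeps cells from differentiating, Tsc1 (at least 1.31-fold), Satb1 (0.66) and Foxp1 (0.55) rose. Klf2, a factor of quiescence, stayed uncalled at 11.03 and 10.96 before and 10.98 and 11.12 after, and so did Il7r (0.29), Tcf7 (0.28) and Lef1 (-0.12). Of 8 helper lineage factors Gata3 (-0.72), of type 2 helper cells, and Runx1 (-0.69) were lower. Rora (0.70), of type 17 helper cells, and Bcl6 (0.53), of follicular helper cells, were higher. That is 25% of the 8 each way, beside the same shares of all genes.

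Among 20 measured genes described as miR-21 targets (33 listed), 4 were called higher (20%) and 2 lower (10%), with a median of 0.03. Of all genes 11.9% were called higher and 13.2% lower. Map2k3, a kinase above p38, went from 8.61 and 8.53 to 10.12 and 10.15, and Pdcd4, an inhibitor of translation and widely used miR-21 target, from 8.20 and 8.12 to 6.88 and 6.78. Both moved almost equally in cells with and without the microRNA printed above (knockout minus wild-type response 0.11 and -0.03). Tiam1 (1.01), Marcks (0.57) and Apaf1 (0.46) rose and Bcl2 fell. Over the list, the response was larger in knockout for 12 of 20 genes, against 3646 of 7387 genes. Of 17 housekeeping and actin genes 0% were called higher and 17.6% lower. Cfl1, Actb and Pfn1 fell by 0.76, 0.58 and 0.49, and the 5 Actb probes disagreed, from -0.91 to 0.45.

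The response by genotype was compared as values only, since 1 array per combination leaves no error for it. Among 8820 probes detected on all 4 arrays, the response was at least 2-fold larger in knockout for 81 (0.918%) and at least 2-fold smaller for 31 (0.351%). The largest differences above 0 were those of Fosb (2.75), Irs2 (2.28), Tnfaip3 (2.26), Gadd45b (2.24), Tob1 (1.80), Rasl11b (1.78), Gadd45g (1.72) and Gadd45a (1.57). Irs2, an adaptor of the insulin receptor, was at 7.90 and 6.18 before and 7.06 and 7.62 after stimulation. Tob1, an antiproliferative protein of quiescent T cells, was at 7.67 and 6.60 before and 6.65 and 7.38 after. In all 8 genes wild type was above knockout before stimulation and below it afterwards, a pattern that ranking by the difference of response favours.

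Among lists, the 8 AP-1 genes had a median difference of response of 0.85 (6 of 8 larger in knockout). The 19 early transcription factors had 0.42 (15 of 19 larger in knockout). Over all genes the response was larger in knockout for 3646 of 7387. The medians of knockout minus wild type in the AP-1 list were -0.28 before and 0.37 after stimulation. Smaller in knockout were Lyz1 (-1.75), LOC100047009 (-1.45), Snx14 (-1.33), H2-Ab1 (-1.28), Ndufb10 (-1.26), Sqle (-1.23), Serpina3g (-1.16) and Ptges3 (-1.15). Sqle, an enzyme of cholesterol synthesis, went from 5.55 and 5.79 to 7.05 and 6.06, so that only the stimulated wild-type array was high. H2-Ab1, an MHC class II chain and B cell marker, had 3 probes that disagreed, and the B cell marker sums given above were highest on the unstimulated knockout array, whose part in the result was not tested.

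Whether the response was particular to CD45High cells was tested against CD25High cells, in which the stimulated knockout array stood apart with a median correlation to the other arrays of 0.888 against 0.938 to 0.965. With all 8 arrays 0 of 11047 probes passed (0%, limma interaction, lowest adjusted p = 0.296, 1047 at an unadjusted p under 0.05). Without that array 91 probes (0.824%) had a response above and 113 (1.02%) below that of CD25High cells, but the CD25High response is then in effect that of the wild-type pair. Without either wild-type CD25High array the counts were 1277 and 734. With any 1 CD25High array left out, the only error left was the gap between the CD45High genotype pairs. The SD of that gap over probes was 0.38, against 0.74 in CD25High cells. Those calls and their adjusted p-values therefore do not carry the spread of CD25High cells. Of the 2422 probes called in CD45High cells, 93.0% had the same sign in the wild-type CD25High pair, against 75.8% of all probes.

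The differences of Irf4 were larger in CD45High cells (3.92 and 4.25) than in CD25High cells (2.55 and 1.88), a difference of 1.53 without the array (limma, adjusted p = 0.00971) and 1.87 with it (adjusted p = 0.308). Irf4 started lower in CD45High cells and reached a like level, 11.60 and 11.14 against 11.37 and 10.76 in CD25High cells. Ctla4 also had larger differences (1.20 and 2.54 against 0.17 and 0.46, adjusted p = 0.0361 without the array by limma and 0.467 with it). Smaller in CD45High cells were the rises of Il4i1 (2.49 and 2.27 against 3.63 and 3.35), Ccl4 (1.74 and 1.89 against 3.16 and 2.91), Cdkn1a (1.98 and 1.90 against 3.17 and 2.87) and Rora (0.70 and 0.70 against 2.34 and 2.05), which, like Irf4 and Ctla4, were not called with all 8 arrays or without any 1 CD45High array, and were called when any 1 of the 4 CD25High arrays was left out. Leaving out either array of a CD25High pair removes that pair's response and leaves CD45High cells as the only source of error. Csf2, the growth factor GM-CSF, and Pdgfa were detected on no CD45High array, while in stimulated CD25High cells they were at 7.58 and 7.19 and 8.20 and 7.46. Hspa1a, Kif23, Myo6 and Grm6 fell in CD45High cells and had differences above 0 in both CD25High pairs, with the difference called under the same settings. Cd83, Gch1 and Kdm2b had differences of 0.02, 0.26 and 0.11 between the populations without that array, none of them called.

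**Figure D5:**
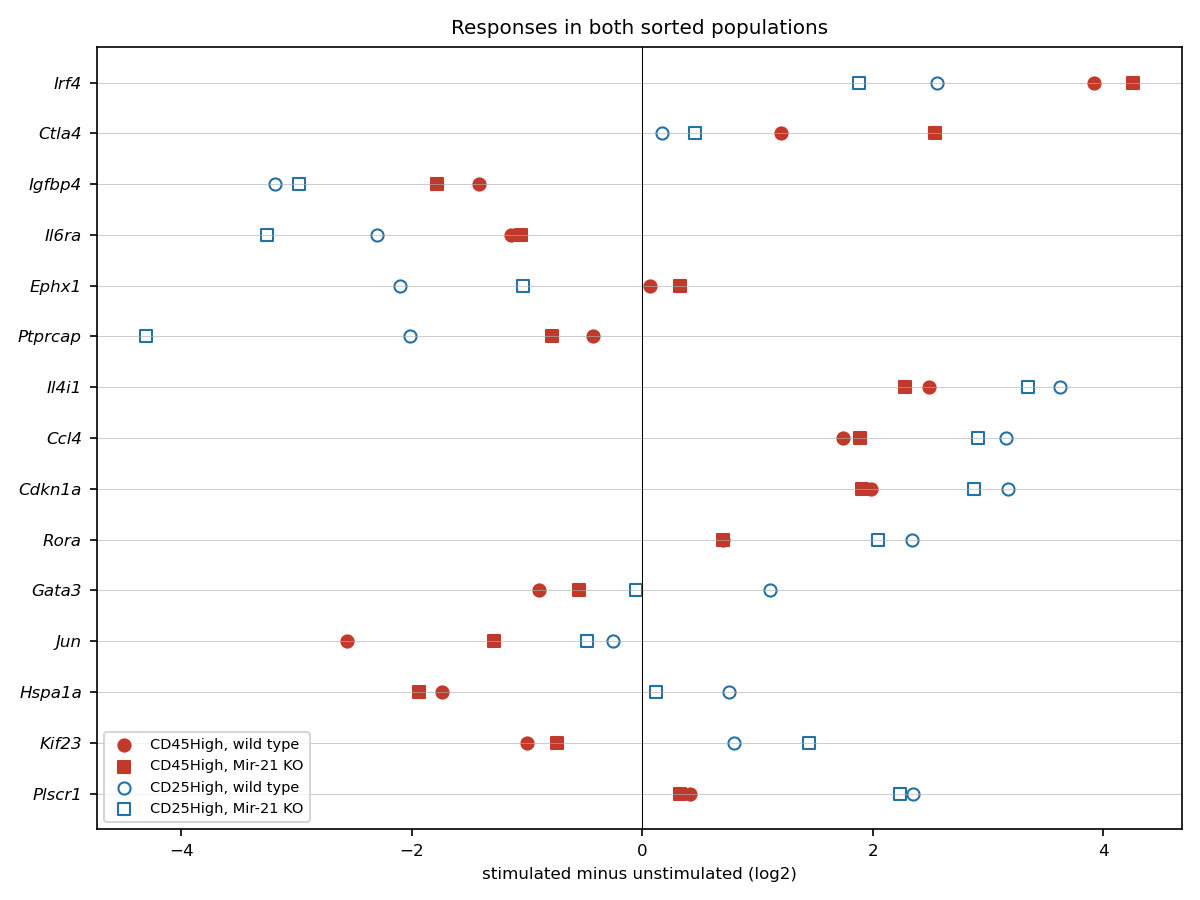
Log2 difference stimulated minus unstimulated for 15 named genes in each genotype pair, with filled symbols for CD45High and open symbols for CD25High cells, circles for wild type and squares for Mir-21 KO. Genes shown had a called difference between populations when the stimulated knockout CD25High array was left out; Irf4 and Ctla4 lie further right in CD45High cells, and Il4i1, Ccl4, Cdkn1a, Rora and Plscr1 further right in CD25High cells.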

How the data were processed

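The authors deposited a non-normalized table of bead intensity, bead standard error, bead number and detection p-value for 25697 probes of an Illumina MouseRef-8 v2.0 array, 1 colour, per the file headers. They also deposited a log2 value table of 14533 probes, made with limma per the submitters' processing notes (no version), which entered as an alternative. Whether the scanner subtracted background is not stated there.

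All 8 arrays were background corrected, offset by 16, quantile normalized and put on the log2 scale with neqc (limma 3.58.1, R 4.3.3). A probe was tested if its detection p was under 0.01 on at least 2 of the 4 CD45High arrays. The model held genotype and stimulation, which left 1 residual degree of freedom among 4 arrays (prior 12.4), with Benjamini-Hochberg adjustment over 9998 probes and calls at 0.05. Genotype was the block because each pair shares it, and the labels give no other replicate number. Symbols were current for 20733 probes, older for 3872 and unmatched for 1092. Levels of different probes were not compared.

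Genes named are the 15 largest called rises and falls, up to 4 called members of each list, a fixed set of early and activation genes, and 8 genes each way for genotype and population. Other list members were named after their values were seen, to account for the lists. A few list members count in the totals and are not reported here. The members and lists were chosen with earlier results of these data known. List values use the brightest probe of a gene, and other probes of the same gene can differ in the call. The scripts were tested on simulated data. Alternatives changed the background correction, normalization, detection filter, prior, error and block, and left out each array (each CD45High array with genotype dropped from the model).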

Additional observations from a re-analysis of the deposited data

Results flagged for a closer look

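In 3 genes named for the response to stimulation, Hspa1a, Cd28 and Tiam1, and in Kif23, Myo6 and Grm6, named for the size of the difference between populations, both genotype pairs of CD45High cells moved one way and both pairs of CD25High cells the other. The difference between the populations was tested for each and passed for none of them with all 8 arrays (limma interaction, adjusted over 11047 probes). Adjusted p-values without the stimulated knockout CD25High array rest on an error from CD45High cells alone. Hspa1a had differences of -1.74 and -1.94 (wild type, knockout) in CD45High cells and 0.75 and 0.12 in CD25High cells, a difference of -2.27 (adjusted p = 0.305). Without the stimulated knockout CD25High array it was -2.59 (adjusted p = 0.000174). Cd28 had 0.67 and 0.55 in CD45High cells and -0.11 and -1.97 in CD25High cells, a difference of 1.65 (adjusted p = 0.494), or 0.72 without that array (adjusted p = 0.257). Tiam1, an exchange factor of the GTPase Rac, had 0.79 and 1.24 in CD45High cells and -0.12 and -0.34 in CD25High cells, a difference of 1.24 (adjusted p = 0.438), or 1.13 without that array (adjusted p = 0.0645). Kif23, a mitotic kinesin, had -1.0 and -0.74 in CD45High cells and 0.80 and 1.45 in CD25High cells, a difference of -2.00 (adjusted p = 0.308). Myo6, an unconventional myosin, had -1.31 and -1.81 against 0.24 and 0.21 (-1.79, adjusted p = 0.305), and Grm6 had -0.55 and -0.73 against 0.98 and 1.31 (-1.79, adjusted p = 0.305). Without that array the differences of Kif23, Myo6 and Grm6 were -1.67, -1.80 and -1.62 (adjusted p = 0.00473, 0.00383 and 0.00532).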

How the results depend on the processing

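The number of calls depended on the error and the arrays used more than on the normalization. Against 1156 higher and 1266 lower, the counts were 147 and 175 with no detection filter, 77 and 27 with an error from all 8 arrays, and 259 to 1049 and 271 to 1191 when each CD45High array was left out. Those fits held stimulation alone, because 3 arrays leave no residual degree of freedom beside genotype, and without the replicate block for genotype all 4 arrays gave 880 and 1001. The share of calls that were higher was 47.7%, and 74.0% with the error from all 8 arrays. Without background correction, 41 probes were at least 2-fold higher and 33 lower in both pairs, and 21 and 2 responded at least 2-fold more and less in knockout. The population difference had 0 to 1277 probes called higher and 0 to 734 lower when arrays were left out.

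Of 124 named probes, 124 kept direction and call under cyclic loess and with the deposited value table, 110 without background correction, 56 without a filter and 46 with the error from all 8 arrays. None reversed in those settings. When CD45High arrays were left out in turn, 4 probes that were not called changed sign: Fosb ranged from -1.04 to 0.44 (0.44 without the unstimulated and 0.33 without the stimulated wild-type array), Egr1 from -0.23 to 0.11 (0.10 and 0.11 without these arrays), Rgs1 from -1.12 to 0.010 and Klf2 from -0.016 to 0.13. In the population difference, leaving out CD25High arrays gave -2.25 to 2.73 and -2.08 to 3.01 for 2 Ramp3 probes, below 0 without either knockout array. Without either wild-type array Rsad2 was -0.97 (up to 1.37), Ifit3 -0.59 (up to 1.61) and Stat5a 0.54 (down to -1.55), and without background correction Rsad2 was -0.10. The cause was not tested. Signals near background limit the folds of genes undetected before or after stimulation.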
